A study of Mus musculus with 8 samples.

Results

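Lrrc15-positive callus stromal cells are bone stromal cells that carry transcripts of Lrrc15, a leucine-rich repeat membrane protein. They also stay under set limits on a few genes that mark other cell classes, while further genes of those classes were not limited. Of 45328 cells kept, 291 (0.642%) met the definition, and 270 of these 291 (92.8%) came from fractured bone. A cell was counted when it held at least 2 unique molecular identifiers (UMIs, each standing for 1 captured transcript) of Lrrc15. It also had to hold under 5 UMIs of the fibroblast genes Clec3b, Dpt and Mfap5 together, under 3 of the tendon genes Kera and Tnmd, at most 1 of Mmp9, and none of the endothelial gene Cdh5 and the leukocyte gene Ptprc. Finally, the mature osteoblast genes Bglap and Bglap2 had to stay under 100 UMIs per 10000, and the cartilage genes Acan, Hapln1 and Matn3 under 40 per 10000. The cells were thus chosen by measured UMIs of these genes, whose levels are given below as a description only.

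The study profiled stromal cells of mouse bone by droplet single-cell RNA sequencing to map which cells take part in fracture repair. All mice were wild-type C57BL/6 females, 12 weeks old at collection. In the Fracture group the left leg had been broken at 10 weeks of age, held by an intramedullary nail and collected at day 14, and the Control group was unfractured. Each group consists of 2 cell preparations with 2 libraries each, and blood cells had been depleted before encapsulation. The labels do not say how many animals a preparation pools. The 2 libraries of a preparation were summed, so n = 2 per group, and nothing in the labels says that the preparations came from separate animals.

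Lrrc15 was first described in cells exposed to amyloid peptides and is known as a surface protein of osteoblast-lineage cells and of activated, TGF-beta-exposed fibroblasts. Fibroblasts of that kind are known for making fibrillar collagen and matricellular proteins and, as myofibroblasts, for assembling contractile stress fibres of smooth muscle actin. In a healing fracture, periosteal and marrow stromal cells first build a soft callus of cartilage and fibrous matrix, which is then resorbed by proteases and replaced by bone. Lrrc15 lies on chromosome 16 at 30269302 to 30283256, minus strand (GRCm38).

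The promoter windows of Lrrc15 and of Mmp13, the interstitial collagenase whose transcript also runs through the results, are shown here from RefSeq (GRCm38.p6), 250 bases before to 50 bases after the start of the gene. Of 12 genes looked up, 8 had a window in the RefSeq table, and the windows other than those of Lrrc15 and Mmp13 are not described here. Capitals mark the letters TGACTCA, the core that AP-1 factors (Fos and Jun family dimers) bind, and in Mmp13 also ACCACA, a core of RUNX factors.
Lrrc15, chr16:30283205-30283504, minus strand: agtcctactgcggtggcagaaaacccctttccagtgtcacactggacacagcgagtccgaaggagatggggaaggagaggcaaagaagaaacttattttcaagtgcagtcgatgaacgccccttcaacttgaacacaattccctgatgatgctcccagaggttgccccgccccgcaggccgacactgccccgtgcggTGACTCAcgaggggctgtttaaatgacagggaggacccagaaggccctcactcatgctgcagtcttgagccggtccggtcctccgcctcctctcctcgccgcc
Mmp13, chr9:7272264-7272563, plus strand: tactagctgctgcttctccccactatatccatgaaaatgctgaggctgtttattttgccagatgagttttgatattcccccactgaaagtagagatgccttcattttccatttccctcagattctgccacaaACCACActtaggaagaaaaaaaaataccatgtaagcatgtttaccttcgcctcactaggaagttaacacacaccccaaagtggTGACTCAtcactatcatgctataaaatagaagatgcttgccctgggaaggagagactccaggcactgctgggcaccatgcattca
The AP-1 letters begin 53 bases before the start in Lrrc15 and 35 bases before it in Mmp13, and the RUNX letters begin 118 bases before it in Mmp13. Both strands were searched, so that the AP-1 letters also count when read as TGAGTCA. For RUNX the other strand reads TGTGGT, and the matches in Mmp13 do not overlap. Of 32851 promoter windows of the same length, 1709 (5.2%) held the AP-1 letters, 5506 (16.8%) the RUNX letters and 310 (0.944%) both. A match describes the letters and is not a binding site.

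The libraries held 56543151 to 89126291 UMIs each. Control cells were shallower than Fracture cells, with median UMIs per cell of 7711 and 11351. Among the gated cells the medians were 9828 and 11494.5 UMIs. Across all libraries 250 barcodes occurred more than once, and 4 gated cells shared a barcode with another library, while no barcode was repeated among the gated cells. Scrublet called 805 doublets (1.78%) and 1 of the gated cells, but it called only 10 of 6069 and 11 of 6366 cells in 2 Fracture libraries, where it did not work.

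Before any result, the name was checked against marker genes, and part of the Control group went against it. Of the 21 Control cells, 6 carried 156 to 4977 UMIs of Pf4, Ppbp and Itga2b, which mark megakaryocytes and platelets, and at most 11 UMIs of Col1a1, the main collagen of stroma. The other Control cells held at most 3 UMIs of those megakaryocyte genes. These barcodes were 3 of the 16 cells of Control preparation 1 and 3 of the 5 cells of Control preparation 2. Among the 270 Fracture cells, 2 held 20 or more such UMIs (33 and 510) and the others at most 16. The summed level of the 3 genes was 27900 and 12000 CPM (UMIs of a gene per 1000000 UMIs of the summed cells) in the gated cells of Control preparations 1 and 2, against 46.0 and 280 in Fracture preparations 1 and 2. The name of a callus stromal cell is therefore kept as a label for the Fracture cells, and the Control cells are called by the gate. Where in the bone the cells lay was not measured.

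In the Fracture cells the stromal markers were present in both preparations. Postn, the matricellular protein periostin, stood at 2690 and 2330 CPM, Aspn (asporin) at 1030 and 959 CPM, Col3a1 (type III collagen) at 12000 and 12100 CPM and Thy1, a surface marker of mesenchymal cells, at 124 and 96.2 CPM. These values leave out the megakaryocyte barcodes, as do the list sums and the levels in the Fracture comparisons below, which rest on the 268 remaining Fracture cells. The 5 naming markers together summed to 16200 and 15900 CPM, above the 3740 and 3660 CPM of Lrrc15-free cells and below the 26200 and 25500 CPM of Clec3b fibroblasts, so they do not single out the gated cells. The 13 remaining cells of Control preparation 1 gave 5300, 3370, 25600 and 48.5 CPM for the same genes, and the 2 remaining cells of Control preparation 2 gave 217, 31.1, 1400 and 31.1 CPM. Their naming markers together summed to 34700 CPM in Control preparation 1, above both Fracture preparations, and to 1800 CPM in Control preparation 2. The markers thus do not set the Fracture cells apart from the remaining cells of Control preparation 1.

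Markers of other cells were counted as sums over each list in the gated cells. The osteoblast list of 8 genes was as high as the naming list, at 14300 and 17400 CPM in Fracture preparations 1 and 2, against 44600 and 46200 CPM in Lrrc15-free cells. The chondrocyte list summed to 3230 and 2320 CPM (19400 and 21800 CPM in Lrrc15-free cells) and the septoclast list to 3420 and 4090 CPM (4650 and 5000 CPM). The tendon list summed to 1790 and 1680 CPM (851 and 868 CPM in Lrrc15-free cells) and the Clec3b fibroblast list to 1220 and 1970 CPM (371 and 471 CPM). The marrow stroma list summed to 1070 and 1590 CPM, against 560 and 717 CPM in Lrrc15-free cells, which alone had a limit on its gene Adipoq. Lrrc15-free cells were thus rich in osteoblast and cartilage transcripts, and differences from them describe that class as well as the gated cells. Over all Fracture cells the chondrocyte list stood at 63900 and 62600 CPM, and how much of the sums in the gated cells is free RNA was not tested. In the Fracture preparations the endothelial list of 7 genes summed to 22.2 and 19.7 CPM with Cdh5 at 0 by the gate. The myeloid and osteoclast list of 7 genes summed to 60.8 and 78.7 CPM, the neutrophil list of 6 genes to 27.2 and 23.4 CPM, and the erythroid list of 5 genes to 222 and 1330 CPM. Skeletal muscle genes were near 0, at 4.29 and 2.66 CPM, with Acta1, Myh4, Myod1 and Pax7 at 0, and the Schwann list stood at 28.6 and 21.8 CPM with Sox10 at 0. The list of smooth muscle and pericyte genes was higher, at 719 and 270 CPM, against 118 and 106 CPM in Lrrc15-free stromal cells. Its part in the results is given beside the contractile genes below.

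The gated cells made up a larger share of fractured than of unfractured bone in all 4 pairings of preparations. They were 0.125% and 0.0631% of the cells kept in Control preparations 1 and 2, and 0.986% and 1.2% in Fracture preparations 1 and 2. Control averaged 0.0943% ± 0.0441 (SD, n = 2). Fracture averaged 1.09% ± 0.149 (SD, n = 2), and the ratio of the means was 11.6. No library of either group overlapped with the other, since the highest Control library stood at 0.174% (95% exact binomial interval 0.0871 to 0.312) and the lowest Fracture library at 0.862% (0.641 to 1.14). Intervals here cover counting error only. Lrrc15 chose the cells with results of these data known, so no test was made of this difference.

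**Figure D1:**
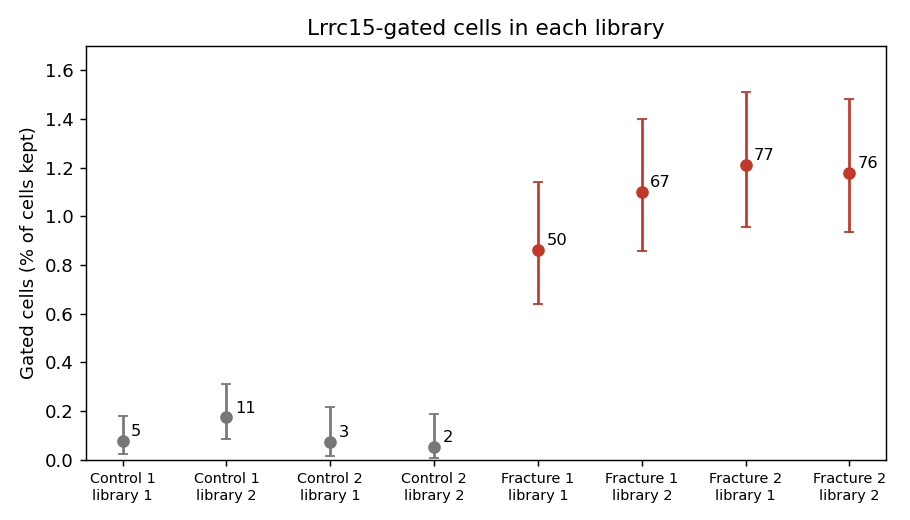
Gated Lrrc15 cells as a percentage of the cells kept, in each of the 8 libraries. Points are shares, bars are 95% exact binomial intervals and the number beside each point is the count of gated cells. The Control libraries lie between 0.052% and 0.174% and the Fracture libraries between 0.862% and 1.21%.

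Measured against stromal cells only (no Cdh5 or Ptprc and at least 5 Col1a1 UMIs per 10000), the shares were 0.236% and 0.0399% in Control and 1.29% and 1.57% in Fracture. Each cell was also thinned to 3000 UMIs, which evens out depth, and 1 Lrrc15 UMI was asked for. The shares of cells were then 0.176% and 0.0594% in Control and 1.64% and 1.87% in Fracture. The exclusions were applied to the thinned counts too, so cells excluded at full depth could enter. This counted 433 Fracture and 22 Control cells, and 187 of the 270 gated Fracture cells kept an Lrrc15 UMI. Thinning left out 3699 shallower Control cells and 19 shallower Fracture cells. At full depth without the megakaryocyte barcodes the shares were 0.102% and 0.0252% in Control and 0.978% and 1.19% in Fracture. The order of the groups was the same under each of these definitions.

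The exclusions of the gate decided how many Fracture cells were counted. Of 1050 Fracture cells with at least 2 Lrrc15 UMIs, 270 (25.7%) passed all of them. The fibroblast genes removed the most, with 605 cells (57.6%) over the limit and 369 cells over this limit alone. Kera and Tnmd removed 217 cells, the cartilage genes 89, Cdh5 78, Mmp9 50 and the osteoblast genes 31, with cells counted under each limit they failed. In Control 44 cells held at least 2 Lrrc15 UMIs and 21 passed.

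Lrrc15 itself was low in single cells. Fracture cells held 2 to 21 UMIs with a median of 3, and 97 of 270 sat exactly at the limit of 2. Another 253 Fracture cells passed every exclusion with 1 UMI. Cells just inside the limit (2 UMIs) and just outside it (1 UMI) stood at 1560 and 1040 CPM for Postn, 94.3 and 68.2 for Thy1, 794 and 741 for Aspn, 8290 and 7870 for Col3a1, and 1090 and 631 for Acta2, all higher inside. Ibsp (8930 and 12100 CPM) and Col1a1 (44700 and 56700 CPM) were lower just inside the limit. No test was made of these values.

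Lrrc15 was not confined to the gated cells. After thinning to 3000 UMIs, 71.8% and 67.3% of them in Fracture preparations 1 and 2 still held an Lrrc15 UMI. In Clec3b fibroblasts (at least 5 UMIs of Clec3b, Dpt and Mfap5) the share was 37.6% and 36.7%. In mature osteoblasts it was 1.64% and 1.93%, in chondrocytes 0.614% and 0.956%, and in endothelial cells, which should lack the gene, 1.62% and 0.832%. Osteoblasts and chondrocytes were thus at or near the endothelial background, with median depths of 11870.5, 13137 and 8080 UMIs for the 3 classes and 11494.5 UMIs for the gated cells.

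What set the cells apart from their stromal neighbours was asked by comparing them with Lrrc15-free stromal cells, which pass the same exclusions, hold no Lrrc15, at least 2 UMIs of the receptors Pdgfra and Pdgfrb, and at most 1 UMI each of Adipoq and of Rgs5 and Myh11 together. The genes of either definition and Thy1, Postn, Aspn and Col3a1 were left out of all counts. UMI counts were summed per preparation and class and compared by the quasi-likelihood test of edgeR with the preparation as a block. The Control preparations held 16 and 5 gated cells, under the 20 set as the least for a test of Fracture against Control across genes within the cells, so that comparison is not tested. A class-by-group term, which asks whether the fracture difference was another in the gated cells than in Lrrc15-free cells, was called for 326 genes in the higher direction (2.96%) and 967 in the lower (8.77%), 11.7% in all. Without the megakaryocyte barcodes the balance turned round, with 100 genes in the higher and 64 in the lower direction.

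Over all 4 preparations, 12 genes were higher (0.109% of 11031 tested) and 19 lower (0.172%) in the gated cells, 0.281% in either direction. At an unadjusted p under 0.05 the numbers were 737 and 673. Cxcl5, a neutrophil chemokine, was higher by 6.87 on the log2 scale (adjusted p = 0.0126, edgeR), and so were Lrrc32, which tethers latent TGF-beta (3.68), the regeneration-associated protease-like Pamr1 (3.02), the matrix protein Ecm1 (2.64) and Glipr2 (2.46). Slc6a4, Treml2 and AI504432 were also called higher, but without the megakaryocyte barcodes of both groups they stood at 0 to 2.15 CPM in the Fracture preparations. Lrrc32 stood at 58.3 and 44.9 CPM in the gated Control cells with those barcodes and at 0 without them, while its Fracture levels were 14.1 and 13.7 CPM with them and 13.6 and 13.3 CPM without. Chi3l1 (-6.06), A2m, R3hdml (-4.81), the cartilage genes Cytl1 (-4.50), Chad (-3.76) and Chadl, the hedgehog ligand Ihh (-3.75) and Abca8a were lower. Leaving out the megakaryocyte barcodes gave 707 higher and 724 lower genes, and leaving out either Control preparation gave 0 in both directions (unadjusted p under 0.05 for 364 higher and 508 lower genes without Control 1, and for 784 and 721 without Control 2).

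Because of these Control barcodes the main description rests on the 2 Fracture preparations, with 117 and 153 gated cells against 842 and 949 Lrrc15-free cells before barcodes of megakaryocyte transcripts were left out, and 116 and 152 gated cells after. This choice was made after seeing the data. Here 1758 genes were higher (14.3% of 12330 tested) and 1502 lower (12.2%), and 28 of the 31 genes called over all preparations were called in the same direction, with the same Fracture cells in both fits. The fit has 1 residual degree of freedom, and edgeR gave every gene the spread shared by genes of like abundance. Its p-values, and the standard errors (SE) derived from its test, therefore do not reflect how far a single gene's 2 preparations lie apart. The Wald test of DESeq2 called 502 higher and 387 lower genes, and all 889 were also called by edgeR in the same direction. Its p-values rest on the same sums and also lean on spread shared across genes, so they are no independent check. The counts of gene groups below are therefore given with the number that passed in each of 4 fits, namely edgeR with the block, edgeR without it, edgeR without the 13 cells rich in Rgs5, and DESeq2. Over all genes tested, 479 (3.88%) were higher and 358 (2.9%) lower in each of the 4 fits. The fit without the Rgs5-rich cells also leaned less on the shared spread (median prior degrees of freedom of 24.8 against infinite), so a call lost there cannot be told apart from that change, and the log2 differences are given beside such losses. Median depth was 10018 UMIs in the Lrrc15-free cells of Fracture and 11494.5 in the gated cells.

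Genes of the contractile and actin cytoskeleton were the most uniform group across genes, though not across cells. All 24 genes tested were higher in the Lrrc15-positive callus cells, 20 of them in each of the 4 fits, with a median log2 difference of 1.30 against -0.004 for all genes tested. Acta2, smooth muscle actin, stood at 2730 and 1670 CPM in the gated cells of Fracture preparations 1 and 2 and at 151 and 102 CPM in Lrrc15-free cells, a log2 difference of 3.96 ± 0.09 (SE). Tagln, the actin-binding transgelin, stood at 1190 and 706 CPM against 51.2 and 26.8 CPM (4.48 ± 0.10). The classes did not overlap for either gene, and preparation 1 was higher than preparation 2 in both classes. These sums were carried by part of the cells. In the 117 gated cells with at least 10 Acta2 UMIs per 10000, Tagln stood at 2070 and 1750 CPM. In the other gated cells Tagln stood at 33.9 and 21.6 CPM and Acta2 at 121 and 105 CPM. Low Acta2 in those cells follows from the cut. The Lrrc15-free cells were not cut on Acta2, so the values cannot tell whether the other gated cells resemble them.

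Further contractile genes followed the same order. Cnn1, the calponin of smooth muscle, stood at 44.3 and 22.3 CPM against 1.68 and 0.925 CPM, Actg2 (enteric smooth muscle actin) at 310 and 223 against 12.5 and 10.8 CPM, Myl9 (a myosin light chain) at 417 and 354 against 60.2 and 64.4 CPM, and Tpm2 (tropomyosin) at 1290 and 850 against 233 and 182 CPM. Actb, the actin of every cell, was higher by 0.90 ± 0.08, at 7320 and 6340 against 3390 and 3250 CPM. Pericytes and smooth muscle cells also express these genes, and the Lrrc15-free class was defined with at most 1 UMI of Rgs5 and Myh11, so the classes differ in mural cells by construction. When the 13 gated cells with 10 or more Rgs5 UMIs per 10000 were left out, 23 of the 24 genes were still higher with a median of 1.23. Acta2 then stood at 2210 and 1440 CPM and Tagln at 931 and 621 CPM, with differences of 3.72 and 4.23 (adjusted p = 8.12e-22 and 4.81e-20, edgeR).

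**Figure D2:**
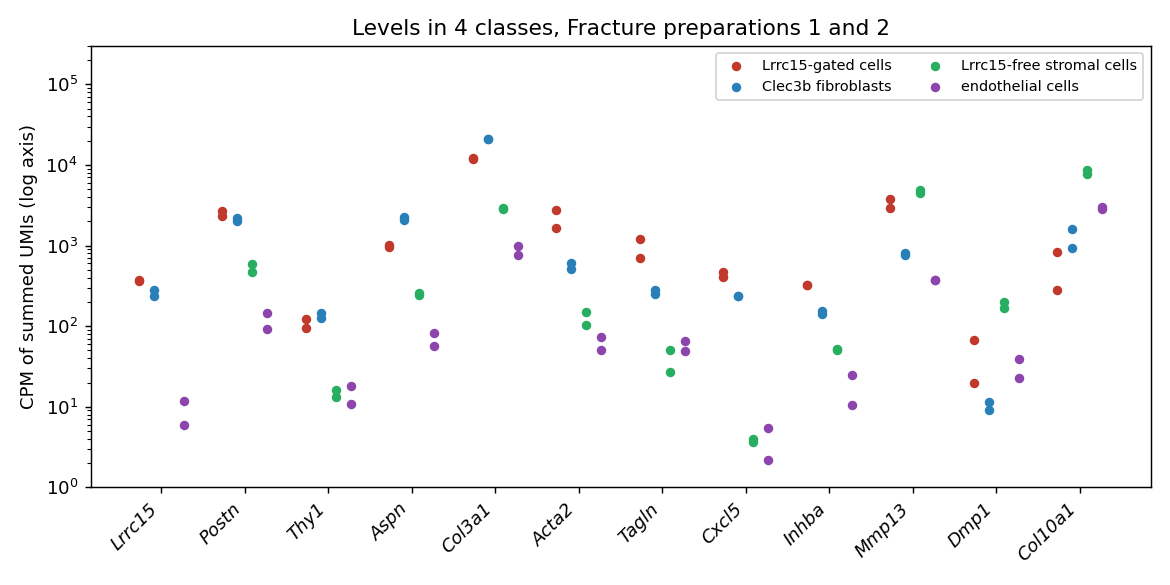
CPM of summed UMIs on a log axis for 12 genes in 4 classes of Fracture cells, with 1 point per preparation (n = 2). Acta2, Tagln, Cxcl5 and Inhba are highest in the Lrrc15-gated cells, while Col10a1 is highest in the Lrrc15-free cells and Aspn and Col3a1 in the Clec3b fibroblasts. Lrrc15 in Lrrc15-free cells is 0 by definition and not drawn.

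Chemokines, cytokines and osteoclast regulators were mostly higher, 16 of 24 tested, with 2 lower and a median of 1.34. Of these, 8 passed as higher in each of the 4 fits. Cxcl5 stood at 409 and 472 CPM in the gated cells against 3.93 and 3.70 CPM, a difference of 6.71 ± 0.14 (adjusted p = 9.2e-156, DESeq2). It was carried by few cells, being found in 21 of 116 and 30 of 152 gated cells of the 2 preparations. Cxcl16, a membrane-bound chemokine, was broader, in 41 and 33 cells, at 70.8 and 72.3 against 10.2 and 7.77 CPM (2.87 ± 0.17). Il6 was low, at 17.2 and 10.1 against 2.92 and 0.74 CPM. For Cxcl10, 2 cells gave all of the 181 UMIs of preparation 1, and preparation 2 held 4 UMIs.

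The acute-phase proteins Saa3 and Hp (haptoglobin) went with Cxcl5. Saa3 stood at 633 and 649 CPM against 9.32 and 52.4 CPM, and Hp at 826 and 1210 against 112 and 200 CPM. The Saa3 level of Lrrc15-free cells differed widely between preparations, and its difference of 4.45 passed with DESeq2 (adjusted p = 1.79e-34) but not in edgeR without the block (4.20, adjusted p = 0.161), with DESeq2 size factors (4.45, adjusted p = 0.266) or without the Rgs5-rich cells (4.5, adjusted p = 0.275). Hp did not pass without the block (2.57, adjusted p = 0.061, edgeR). Il1rl1, an interleukin receptor, was higher at 17.9 and 31.9 against 0.786 and 1.20 CPM, and 39 of its 60 UMIs in preparation 2 came from 1 cell. Higd1b and Dlk1, the other genes with the largest differences, came from 8 and 4 cells and from 8 and 3 cells of the 2 preparations and fell below the filter on low counts without the Rgs5-rich cells.

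Genes of the fibrous matrix were mostly higher in the gated cells, with exceptions in each list. The tendon, Clec3b fibroblast and marrow stroma marker sums given above were also higher than in Lrrc15-free cells, and their part in these differences was not tested. Of 17 fibrillar and fibril-associated collagens tested, 12 were higher and 5 lower, 11 and 3 of them in each fit. Col5a3 stood at 292 and 311 CPM against 39.7 and 33.9 CPM (2.90 ± 0.10), Col6a3 (type VI collagen of the pericellular matrix) at 2160 and 1970 against 576 and 597 CPM (1.67 ± 0.08), and Col12a1 at 2300 and 1760 against 805 and 747 CPM (1.23 ± 0.08). Col11a2, a cartilage collagen, stood at 212 and 391 against 1070 and 995 CPM (-1.95), and its call as lower was lost with DESeq2 size factors (adjusted p = 0.267, edgeR) and without the Rgs5-rich cells (-1.91, adjusted p = 0.242, edgeR). Col1a1 stood at 29900 and 40200 against 46100 and 42300 CPM, and its call as lower (-0.49) was lost with DESeq2 size factors (-0.49, adjusted p = 0.458, edgeR) and without the Rgs5-rich cells (-0.44, adjusted p = 0.124, edgeR).

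Among 22 matricellular genes 14 were higher and 4 lower, with a median of 1.00 (11 and 1 in each fit). Thbs4 (thrombospondin 4, a tendon matrix protein) stood at 313 and 314 against 30.3 and 53.6 CPM, Tgfbi at 416 and 362 against 86.3 and 80.8 CPM, and the hyaluronan synthase Has2 at 44.3 and 29.2 against 8.42 and 7.21 CPM. Tnc (tenascin C) and Fn1 (fibronectin) did not pass, at 981 and 744 against 849 and 796 CPM and at 6280 and 6520 against 5350 and 5800 CPM. Of 15 elastic fibre genes 8 were higher and 2 lower (6 and 1 in each fit), with Fbln2 at 456 and 424 against 69.0 and 50.6 CPM and Fbn1, the main microfibril protein, at 454 and 482 against 129 and 123 CPM. In the collagen processing group 11 of 19 were higher and 3 lower (7 and 2 in each fit), among the former the crosslinking enzyme Loxl2 (230 and 205 against 72.6 and 75.8 CPM) and the prolyl hydroxylase subunit P4ha3 (109 and 84.0 against 25.6 and 21.9 CPM).

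Proteases and their inhibitors were mostly higher than in Lrrc15-free cells too, with 22 of 34 metalloproteinases, cathepsins and inhibitors called higher and 3 lower (13 and 2 in each fit). Mmp14, which activates other metalloproteinases at the cell surface, stood at 814 and 886 against 399 and 393 CPM. Adamts16 (19.3 and 14.4 against 2.24 and 0.74 CPM) and the plasminogen activator Plau (20 and 8.51 against 2.13 and 2.13 CPM) were higher at low levels. Mmp13 was lower in the gated cells, at 2890 and 3830 against 4440 and 4830 CPM (-0.62 ± 0.08, adjusted p = 0.000442, DESeq2). Its inhibitor Timp1 was higher, at 2090 and 2430 against 1270 and 1130 CPM.

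Signalling ligands moved in both directions. Inhba, the subunit of activin A, stood at 322 and 326 CPM against 51.5 and 50.2 CPM (2.53 ± 0.10), and its antagonist Fst (follistatin) at 166 and 190 against 45.8 and 42.0 CPM. Of 24 TGF-beta genes 10 were higher and 8 lower, 5 and 5 in each fit. Lrrc32 stood at 13.6 and 13.3 against 1.23 and 2.13 CPM and the target Pmepa1 at 873 and 927 against 404 and 391 CPM, while the decoy receptor Bambi was lower, at 89.4 and 124 against 322 and 308 CPM. Tgfb1 was also lower (-0.69 ± 0.10), at 136 and 157 against 219 and 212 CPM.

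Among 25 Wnt genes 9 were higher and 9 lower (5 and 5 in each fit), and among 22 BMP genes 5 were higher and 9 lower (4 and 6 in each fit). Wnt5a, a ligand of the noncanonical branch, was higher (130 and 92.0 against 35.7 and 30.0 CPM), as was the BMP antagonist Grem1 (78.7 and 47.3 against 8.42 and 11.2 CPM). Wnt4 (17.9 and 13.3 against 94.9 and 93.9 CPM) and the antagonists Frzb (28.6 and 36.2 against 206 and 212 CPM) and Wif1 (59.4 and 58.5 against 244 and 235 CPM) were lower. Of 30 growth factor genes 10 were higher and 8 lower (6 and 4 in each fit), with Igf2 at 50.1 and 73.9 against 7.07 and 15.3 CPM. Igf1 did not pass, at 124 and 158 against 127 and 160 CPM.

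Genes of mineralising osteoblasts were lower as a group, with 16 of 19 tested called lower, 1 higher and a median of -1.76, and 10 were lower in each fit. Ibsp, bone sialoprotein, stood at 5860 and 7420 against 12600 and 13700 CPM (-1.14 ± 0.07), Spp1 (osteopontin) at 7810 and 8990 against 29800 and 30200 CPM (-1.98 ± 0.07), and Alpl, the phosphatase of mineralisation, at 304 and 370 against 827 and 839 CPM. Dmp1 stood at 20 and 66.5 against 166 and 197 CPM (-2.19) and was not called without the block (-2.13, adjusted p = 0.148, edgeR), with DESeq2 size factors (adjusted p = 0.28, edgeR) or without the Rgs5-rich cells (-2.17, adjusted p = 0.238, edgeR). Both classes had passed the same limit on Bglap and Bglap2.

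The osteoblast regulators Runx2 (116 and 125 against 247 and 264 CPM, -1.22 ± 0.11), Sp7 (77.2 and 80.3 against 171 and 163 CPM) and Dlx5 (41.5 and 23.9 against 104 and 98.4 CPM) were lower as well. Scx, the tendon and ligament regulator, was higher at 147 and 123 against 36.1 and 29.8 CPM (1.89 ± 0.11). Sox9, the cartilage regulator, stood at 174 and 199 in the gated cells and at 172 and 199 CPM in the Lrrc15-free cells. It did not pass (-0.13 ± 0.10 after the scaling of the fit, which the CPM leave out). Of 31 skeletal transcription factors 6 were higher and 13 lower, 2 and 7 in each fit.

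Cartilage genes lay far below the Lrrc15-free class, with 17 of 20 called lower, 1 higher, a median of -2.49 and 14 lower in each fit. Both classes had passed the same limit on Acan, Hapln1 and Matn3. Chad stood at 43.6 and 45.2 against 692 and 762 CPM (-4.18 ± 0.12), the growth plate gene Ucma at 7.87 and 10.1 against 100 and 118 CPM, and Comp at 1200 and 1320 against 3290 and 3470 CPM. Col10a1, the collagen of hypertrophic cartilage, stood at 822 and 282 against 7820 and 8680 CPM, and in preparation 1 a single cell held 747 of its 1150 UMIs. Its difference of -4.21 was not called without the block (-4.07, adjusted p = 0.084, edgeR), with DESeq2 size factors (adjusted p = 0.222, edgeR) or without the Rgs5-rich cells (-4.18, adjusted p = 0.237, edgeR). Chi3l1 stood at 0.715 and 2.13 against 58.9 and 109 CPM, a difference of -5.96 that was not called without the block (adjusted p = 0.0833, edgeR), and R3hdml, Cytl1, Chadl, 8430408G22Rik and Pank1 completed the 8 lowest differences named by rule. With cells of 1 Lrrc15 UMI included these differences were smaller, at -2.20 for Chad, -2.44 for R3hdml and -2.09 for Cytl1, and Cytl1 was no longer called (adjusted p = 0.141, edgeR).

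**Figure D3:**
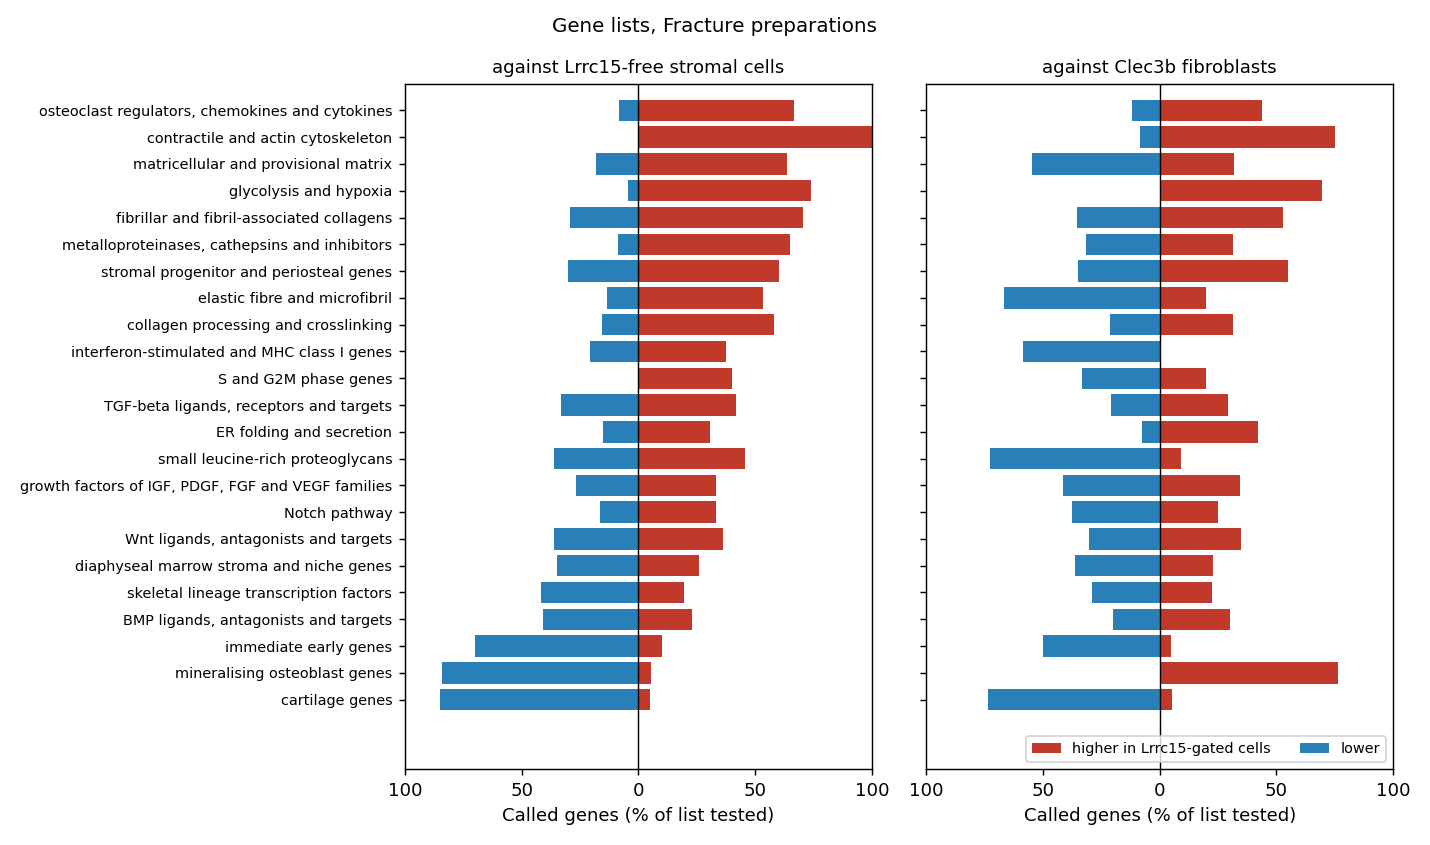
Percentage of the tested genes of each list called higher (right of 0) or lower (left of 0) in Lrrc15-gated cells of the Fracture preparations, against Lrrc15-free stromal cells (left panel) and Clec3b fibroblasts (right panel), at an adjusted p under 0.05 with edgeR. Against Lrrc15-free cells all 24 contractile genes are higher and 17 of 20 cartilage genes lower, and 16 of 19 mineralising genes are lower there but 13 of 17 higher against fibroblasts.

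Glycolysis and hypoxia genes were higher in 17 of 23 and lower in 1, with a median of 0.92 and 11 higher in each fit, among them the lactate exporter Slc16a3 (189 and 119 against 35.0 and 29.2 CPM) and the glucose transporter Slc2a1 (51.5 and 44.7 against 14.3 and 14.8 CPM). Immediate early genes were lower in 14 of 20 and higher in 2 (9 and 1 in each fit), with Fos at 791 and 913 against 1670 and 1500 CPM. Fosl1, an AP-1 subunit, went the other way, at 22.9 and 21.8 against 3.14 and 3.24 CPM (2.65 ± 0.30, adjusted p = 5.02e-05, DESeq2). It was found in 22 of 116 and 23 of 152 gated cells.

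Progenitor and periosteal genes were higher in 12 of 20 and lower in 6, but only 5 and 4 in each fit. Ly6a (Sca1) stood at 156 and 164 against 39.7 and 37.7 CPM and Cd34 at 31.5 and 28.2 against 5.39 and 4.53 CPM. S and G2M phase genes were higher in 12 of 30 and lower in 0 with edgeR, but higher in only 2 with DESeq2. Small leucine-rich proteoglycans gave 5 higher and 4 lower of 11, and 3 and 3 in each fit. ER folding genes gave 8 and 4 of 26 (3 and 0 in each fit), interferon and MHC class I genes 9 and 5 of 24 (2 and 1), marrow niche genes 6 and 8 of 23 (3 and 4), and Notch genes 4 and 2 of 12 (0 and 2). In the Notch list Notch3, a mural cell receptor, was higher by 0.97 ± 0.24 with the Rgs5-rich cells and stood at -0.50 without them (adjusted p = 0.255, edgeR).

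A second comparison set the Lrrc15-positive callus cells against Clec3b fibroblasts of the same Fracture preparations, 396 and 444 cells before barcodes of megakaryocyte transcripts were left out. Of these fibroblasts 37.6% and 36.7% hold Lrrc15 themselves at 3000 UMIs. Here 1070 genes were higher (9.44% of 11333 tested) and 1160 lower (10.2%). DESeq2 called 172 and 271, and edgeR without the block 655 and 812. In each of the 4 fits, edgeR with the block, edgeR without it, edgeR without the Rgs5-rich cells and DESeq2, 154 genes (1.36%) were higher and 258 (2.28%) lower. Here too the fit has 1 residual degree of freedom, and 77.3% of the genes were given such a shared spread. The fibroblast class had no limit on osteoblast or cartilage genes, so the limits of the gate touch those lists here.

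Against fibroblasts the order of the mineralising genes turned round, with 13 of 17 higher, none lower and a median of 1.14 (7 higher in each fit). Ibsp stood at 5860 and 7420 against 1430 and 1530 CPM (2.16 ± 0.07), Runx2 at 116 and 125 against 56.4 and 47.1 CPM, and Sp7 at 77.2 and 80.3 against 27.5 and 20 CPM. The sums of the gated cells thus lay between Lrrc15-free stromal cells and fibroblasts in these 3 genes, without overlap of the preparations. Runx2 and Sp7 belong to the list of skeletal transcription factors, which went both ways against fibroblasts. Of 31 tested, 7 were higher and 9 lower with a median of -0.05, and 3 and 3 in each fit. For Ibsp the sum joined unlike cells. When the gated cells were cut by Ibsp itself, it stood at 20300 and 23200 CPM in the 69 richest cells and at 758 and 809 CPM in the others. Mmp13 stood at 2890 and 3830 against 767 and 811 CPM (2.08 ± 0.08).

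Contractile genes were higher than in fibroblasts as well, 18 of 24 with 2 lower and a median of 0.61, and 13 higher and 1 lower in each fit. The smooth muscle and pericyte list moved with them, at 719 and 270 CPM against 234 and 230 CPM in fibroblasts. Without the Rgs5-rich cells, 17 were higher and 2 lower with a median of 0.59, and the differences were 1.81 for Acta2 and 1.66 for Tagln against 1.95 and 1.80 with them (adjusted p = 2.01e-26 and 6.15e-23 without them, edgeR). Acta2 stood at 601 and 508 CPM in fibroblasts and Tagln at 279 and 250 CPM, below both values of the gated cells. Tnfsf11, the osteoclast-inducing ligand RANKL, was higher at 72.2 and 56.4 against 21.5 and 14.3 CPM (1.86 ± 0.17, adjusted p = 1.52e-05, DESeq2), and its decoy receptor Tnfrsf11b (osteoprotegerin) stood at 50.1 and 59.6 against 25.1 and 23.7 CPM. The granzymes Gzmd (44.3 and 47.9 against 3.81 and 2.82 CPM) and Gzme (124 and 156 against 19 and 25.8 CPM), near-identical serine protease genes whose reads may be shared, were found in 18 and 13 and in 22 and 23 gated cells.

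Several genes named for fibroblasts were lower in the gated cells. The gated cells and the fibroblasts lie on opposite sides of the limit of 5 UMIs of Clec3b, Dpt and Mfap5 together. Genes that run with them can differ through that cut alone, and its part in the differences below was not tested. Ly6a stood at 156 and 164 against 1150 and 1080 CPM (-2.80 ± 0.09) and Cd34 at 31.5 and 28.2 against 239 and 219 CPM (-2.94 ± 0.13). The progenitor and periosteal list that holds both genes ran the other way, with 11 of 20 higher, 7 lower and a median of 0.38 (5 and 4 in each fit). Pi16, AW551984, Cxcl9, the complement gene C4b, Nov (Ccn3), Tnxb (tenascin X), Entpd2 and Itih5 were the 8 lowest differences named by rule, with Nov at 7.87 and 2.66 against 189 and 138 CPM and Tnxb at 12.9 and 7.98 against 142 and 160 CPM. Of 15 elastic fibre genes 10 were lower and 3 higher (8 and 1 in each fit), of 11 small leucine-rich proteoglycans 8 lower and 1 higher (6 and 0), and of 24 interferon and MHC class I genes 14 lower and 0 higher (4 and 0). The matricellular list, mostly higher against Lrrc15-free cells, was mostly lower here, with 12 of 22 lower and 7 higher (11 and 4 in each fit) and a median of -0.50. The collagens gave 9 higher and 6 lower of 17 (2 and 4 in each fit), and the metalloproteinases, cathepsins and inhibitors 11 and 11 of 35 (2 and 2). Of 19 cartilage genes 14 were lower and 1 higher (8 and 0). Igf1 was also lower, at 124 and 158 against 674 and 795 CPM.

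The same transcripts were counted in single cells. After thinning each cell to 3000 UMIs, Postn was found in 85.3% ± 5.08 (SD, n = 2 preparations) of gated Fracture cells, against 10.4% of endothelial cells, 45.5% of Lrrc15-free cells and 82.5% of Clec3b fibroblasts. Ctsk, the collagen-cleaving cathepsin, was found in 63.8% ± 0.498, against 7.60%, 48.1% and 76.3% of the same 3 classes. For Mmp13 the share was 56.6% ± 0.32, against 17.2%, 62.1% and 26.1%. The gated cells were thus near the fibroblasts in Postn, and below the fibroblasts in Ctsk and the Lrrc15-free cells in Mmp13. Acta2 was found in 54.6% ± 13.4 of the gated cells, with 64.1% in preparation 1 and 45.1% in preparation 2, against 4.65% of endothelial, 10.4% of Lrrc15-free and 32.7% of fibroblast cells. Runx2 was found in 26.7% ± 3.88 of gated cells, between 49.8% of Lrrc15-free cells and 13.4% of fibroblasts, with 7.73% in endothelial cells.

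Sox9 was found in 28.9% ± 0.213 of the gated cells, 29.6% of Lrrc15-free cells and 29.7% of fibroblasts, against 13.6% of endothelial cells. Ibsp at 65.4% ± 5.47 has to be read against 53.2% in endothelial cells, which should lack it. Col2a1 at 89.0% lay below the endothelial share of 92.0%, so its share cannot be told apart from background. Before thinning, Acta2 was found in 63.0% of gated and 9.07% of endothelial cells and Ibsp in 90% and 83.1%. Cd34 (4.95%) and Ly6a (27.1%) lay below the endothelial shares of 74.7% and 64.6%, but endothelial cells make both genes, so these are no measure of background. At 3000 UMIs, 97 of 270 gated cells held Ibsp and Acta2, against 94.9 calculated from the single shares if they occurred independently. Ibsp, Sox9 and Acta2 together were held by 26 cells, against 27.4 calculated in the same way. With Ibsp this close to its endothelial share, these counts do not show whether the transcripts are made by the same cells.

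The cells were not uniform. Levels of 4 transcripts or sums were cut at limits set after their values were seen, so the classes are ranges and not types, and the values inside and outside are a description. Of 270 Fracture cells, 117 (43.3%) held at least 10 Acta2 UMIs per 10000, 62 in preparation 1 and 55 in preparation 2, with 41 cells between 5 and 20. At least 50 Ibsp UMIs per 10000 were held by 69 cells (25.6%), with 47 cells between 25 and 100. At least 10 UMIs per 10000 of Hp, Saa3 and Cxcl5 together were held by 52 cells (19.3%), 22 and 30, with 8 cells between 5 and 20. Rgs5, a pericyte gene, reached 10 per 10000 in 13 cells, 9 and 4, and 99 cells (36.7%) were in none of these ranges.

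**Figure D4:**
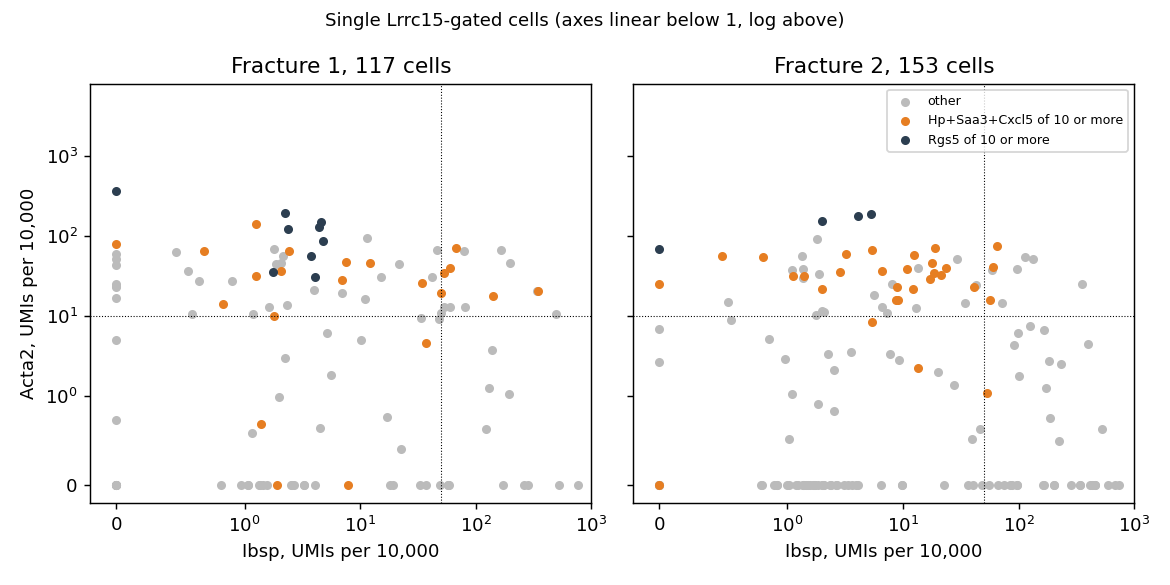
Ibsp (x) and Acta2 (y) in UMIs per 10000 in each Lrrc15-gated cell of Fracture preparation 1 (117 cells) and 2 (153 cells). Axes are linear below 1 and logarithmic above, and dotted lines mark 50 for Ibsp and 10 for Acta2. Cells with Hp, Saa3 and Cxcl5 (orange) lie mostly above the Acta2 line, and the Rgs5-rich cells (dark) all do.

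The ranges overlapped unequally. Of the 52 cells rich in Hp, Saa3 and Cxcl5, 43 (82.7%) also passed the Acta2 limit, which is 36.8% of the Acta2-rich cells. All 13 Rgs5-rich cells passed the Acta2 limit, and none of them passed the Ibsp limit or the limit of the acute-phase and chemokine genes. Ibsp-rich cells shared 23 cells with the Acta2-rich ones, 33.3% of the former and 19.7% of the latter.

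Ibsp-rich cells differed in osteoblast transcripts, but not all in the same direction. Alpl stood at 720 and 825 CPM in them and at 154 and 178 CPM in the others, the parathyroid hormone receptor Pth1r at 704 and 804 against 197 and 174 CPM, and Col1a1 at 55100 and 66500 against 20900 and 28700 CPM. Spp1 stood at 4790 and 8930 CPM in them against 8780 and 8890 CPM. Igfbp6, a fibroblast-associated binding protein, stood at 84.9 and 41.4 CPM in them against 422 and 638 CPM.

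Cells rich in Hp, Saa3 and Cxcl5 held more Lrrc15, at 651 and 557 CPM against 303 and 327 CPM in the other cells, and more Mmp13, at 6630 and 6260 against 2090 and 3150 CPM. Aspn (271 and 334 against 1170 and 1110 CPM), the proteoglycan Fmod (372 and 329 against 1500 and 1430 CPM) and Tnc (317 and 226 against 1110 and 868 CPM) were lower in them. The higher Lrrc15 was not particular to these cells. It was also higher in the Acta2-rich cells (408 and 497 against 304 and 295 CPM) and the Rgs5-rich cells (547 and 687 against 354 and 369 CPM). In the Ibsp-rich cells it was lower (260 and 272 against 398 and 416 CPM). In the Rgs5-rich cells Acta2 stood at 13500 and 15100 CPM, the smooth muscle myosin Myh11 at 853 and 549 CPM and Notch3 at 467 and 687 CPM, while Col1a1 was at 4980 and 7520 CPM and Mmp13 at 0 and 34.3 CPM. These markers of mural cells and the low collagen go against a callus stromal name for those 13 cells. Among the other naming markers, Thy1 was higher in them (644 and 721 against 98.4 and 85.5 CPM) and Postn lower (1840 and 1920 against 2720 and 2320 CPM). Aspn and Col3a1 differed in opposite directions in the 2 preparations.

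Proliferation was counted by the mitotic genes Mki67 and Top2a, either of which had to show 1 UMI once a cell was thinned to 1000. In Fracture preparations 1 and 2, 8 of 117 (6.84%) and 11 of 153 (7.19%) gated cells qualified, against 6.29% and 6.32% of Lrrc15-free stromal cells. In Control it was 0 of 15 and 0 of 5 cells, and 0 of 12 and 0 of 2 without the megakaryocyte barcodes. By a rough rule of 3 divided by the number of cells, a count of 0 allows up to 20% and 60% of the 15 and 5 cells to hold such a UMI at this depth. The rule is loose for so few cells and limits UMIs found, not cells in cycle, so a difference was not detectable. In 2 against 2 preparations no exact permutation test can give a p below 0.33, and none is read here. Without thinning the shares were 6.25% and 20% in Control and 24.8% and 24.2% in Fracture.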

How the data were processed

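Droplet libraries (Chromium 3' V3, NextSeq) of 2 Control and 2 Fracture preparations, 2 libraries each, were analysed from the UMI counts per gene and cell barcode that the authors deposited. The submitters' processing notes name bcl2fastq 2.19.1.403, UMI-tools 1.0.0, STAR 2.7.3a, featureCounts 1.6.4 of Subread and the mm10 build, while the methods of the study name another counting mode of STAR, and which made these counts is not given in the sources used here. Barcodes with 500 to 6000 genes and at most 25% mitochondrial UMIs were kept, 45328 of 48903. Members, gene lists and the classes compared were chosen with earlier results of these data known. Counts were summed per preparation and class and tested in edgeR 4.0.16 (TMM, filterByExpr, quasi-likelihood, robust) with Benjamini-Hochberg adjustment at 0.05 and DESeq2 1.42.0 as an alternative (R 4.3.3). CPM are UMIs of a gene per 1000000 UMIs of the summed cells, without the TMM scaling of the fits, so log2 differences can depart slightly from ratios of CPM. Barcodes with 20 or more UMIs of Pf4, Ppbp and Itga2b were left out of the Fracture comparisons, a choice made after seeing the data, as was the comparison with Clec3b fibroblasts. Doublets were scored with Scrublet in scanpy 1.11.5 and kept in the main results. The block pairs 2 classes of the same preparation, while preparation numbers do not pair Control with Fracture. Named genes were the 8 highest and 8 lowest called differences with at least 20 CPM in the higher class and the same direction in every preparation, and up to 4 called genes and the most abundant gene of each list. Other named genes were picked after their values were seen. On simulated counts, 99 or 100 well-counted genes were changed at each size. The 4-preparation design recovered 5% of the 2-fold and 57.6% of the 4-fold changes among 10867 genes, and the Fracture design 86% and 100% among 12060 genes. Recovery of sparsely counted genes was not simulated. The simulated spread was the one estimated from these same data and no shift between preparations was added, so recovery in the real data may be lower. P-values measure no more than spread between preparations, which may be technical. In the Fracture fits, with edgeR and with DESeq2, they lean on spread shared across genes. Each SE is the size of the log2 difference divided by the square root of the edgeR F statistic. It leans on the same shared spread and is not the error of a single gene's own preparations.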

Additional observations from a re-analysis of the deposited data

Results flagged for a closer look

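The difference between Fracture and Control was compared between the gated cells and the Lrrc15-free stromal cells by a class-by-group term in edgeR. It was called for 1293 of 11031 genes (11.7%), with 326 higher (2.96%) and 967 lower (8.77%) in the gated cells. Leaving out the barcodes with megakaryocyte transcripts gave 164 genes, 100 higher and 64 lower, and 99 of the 1293 remained called in the same direction. For 574 of the 1293 genes the CPM of the gated Control cells was at least 5 times higher with those barcodes than without them. The Control side rests on 16 and 5 cells.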

How the results depend on the processing

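Against Lrrc15-free cells over 4 preparations (12 higher, 19 lower genes), the counts were 159 and 123 with no filter on low counts, 593 and 414 with DESeq2, 0 and 0 at a limit of 1 Lrrc15 UMI (780 and 632 at an unadjusted p under 0.05), 154 and 204 at 3 UMIs, and 0 to 255 and 0 to 68 when a preparation was left out (0 in both directions without either Control preparation). Among alternatives added after seeing the data they were 707 and 724 without megakaryocyte barcodes, 53 and 90 without the highest 6% of doublet scores, and 1750 and 1454 in the Fracture preparations only. Without the replicate block, which pairs classes of the same preparation, they were 2 and 0, and 15 of 16 named genes lost their call. In the Fracture preparations (1758 and 1502), DESeq2 gave 502 and 387 and the fit without the block 1395 and 1164. Of 112 named genes there, 14 lost their call with DESeq2, 13 without the block, 10 at 1 Lrrc15 UMI and 9 without the Rgs5-rich cells, where Higd1b, Dlk1 and Nrarp were not tested. Notch3 reversed to -0.50 without those cells (adjusted p = 0.255, edgeR) and Ifi27l2a to -0.62 at 3 Lrrc15 UMIs (adjusted p = 0.403, edgeR). Against fibroblasts (1070 and 1160) the counts were 172 and 271 with DESeq2, 655 and 812 without the block, and 661 and 714 at 3 UMIs.

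The class-by-group count of 1293 was 2857 at 1 Lrrc15 UMI, 200 at 3 UMIs, 164 without megakaryocyte barcodes and 376 to 2143 when a preparation was left out (2143 without Control 1, 2090 without Control 2, 376 without Fracture 1, 438 without Fracture 2). The share of gated cells was higher in Fracture by 0.997 percentage points of all cells and 1.29 of stromal cells. These became 1.88 and 2.5 at 1 UMI and 0.668 and 0.859 at 3 UMIs. With all limits applied to counts thinned to 3000 UMIs and 1 Lrrc15 UMI asked for, they were 1.64 and 2.1. When a preparation was left out they were 0.892 to 1.1 and 1.15 to 1.43. The cycling difference of 7.01 points was 11.4 without thinning, 7.07 without megakaryocyte barcodes and 6.84 to 7.19 when a preparation was left out. Both thinned Control shares were 0, so leaving out a Control preparation could not change the difference. The causes of these changes were not tested. Fracture against Control across genes within the gated cells was not run, since Control held under 20 cells per preparation.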
